A study of Ovis aries and Bos taurus with 10 samples.

Results

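The genes described here code for the scaffold that surrounds ovarian cells and for the receptors that hold cells to it. They are the collagens, the laminins, the integrins and 12 further matrix proteins (DCN, LUM, SPARC, FN1, POSTN, FBN1, MGP, EFEMP1, LTBP1, HSPG2, NID1 and BGN), chosen by gene symbol and not by their signals. On the bovine array 63 of 9155 gene symbols belonged to this group, through 118 of 24016 probe sets. Each gene was represented by the probe set of the highest mean log2 signal over the arrays of captured cells.

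Fibrillar collagens form the fibres of connective tissue. Type IV collagen, laminins, nidogen and perlecan form the basement membrane, the thin sheet that separates granulosa cells (GC) from the surrounding stroma. Integrins are receptors made of an alpha and a beta chain that bind these proteins at the cell surface. In the ovary, fibroblast-like stromal cells and vessels make most of the fibrillar matrix, and GC and theca cells contribute to the basement membrane of the follicle.

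Oocytes and GC were cut out of frozen ovary sections by laser capture microdissection. They came from newborn lambs (Ovis aries) younger than 1 day. Oocytes of primordial, primary and secondary follicles gave the arrays PDO, PMO and SECO, and their GC gave PDG, PMG and SECG. Each of the 6 was 1 array of pooled cells, from 2 animals for primordial and secondary follicles and from 4 for primary follicles. All were labelled after 2 rounds of amplification (protocol P3). Whole ovine fetal ovary of 132 days post coitum was labelled by the standard protocol (P1), by 2 rounds of amplification followed by the standard labelling (P2) and by P3. Bovine fetal ovary of 8 months was labelled by P1 only. No group had a second array, so the 3 stages stood as the replicates of each compartment, and p values measure only the spread between these arrays.

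On the captured arrays the marker signals did not separate the compartments fully. In the paper, quantitative PCR on amplified RNA of captured cells found GDF9, BMP15 and MAEL higher in oocytes. It found KITLG, GATA4 and AMH higher in GC. The oocyte genes ZP2, ZP3, ZP4, GDF9, KIT, NLRP5 and MAEL were detected on all 6 captured arrays, GC arrays included. BMP15 and SYCP3 were each detected on 1 oocyte array and on no GC array. Together these oocyte genes summed to signals of 2793 to 7940 on oocyte arrays and of 3057 to 5680 on GC arrays. Of 9 GC markers on the array, FST, INHA, INHBA and GATA4 were detected on captured arrays, and AMH, FOXL2, KITLG, FSHR and CYP19A1 were not. SECO carried HBB, the beta chain of haemoglobin, at a signal of 3838, against 16.3 on PDO. Detection here means a signal among the brightest probe sets of an array, down to 45.8 on PDG and 74.2 on PMO. On any of these arrays, fewer cells of a type and less RNA per cell cannot be told apart.

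Of the 63 genes, 45 (71.4%) were detected on at least 1 captured array, and only these were tested. The share over all probe sets was 48.5%, but each gene stood by its brightest probe set on these same arrays, so nothing is read from this pair of shares. Of all 118 probe sets of the genes, 54.2% were detected. Of the 45 genes tested, 22 were detected on all 6 captured arrays, against 4912 of the 11642 probe sets tested. Nothing is read from this pair either, for the same reason. Of the 63 genes, 18 were not detected in captured cells. Among them were 6 of 12 integrin alpha chains, 4 of 11 non-fibrillar collagens outside the basement membrane and 3 of 9 fibrillar collagens. With the fetal ovaries included, 51 genes were detected on at least 1 of the 10 arrays.

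**Figure D1:**
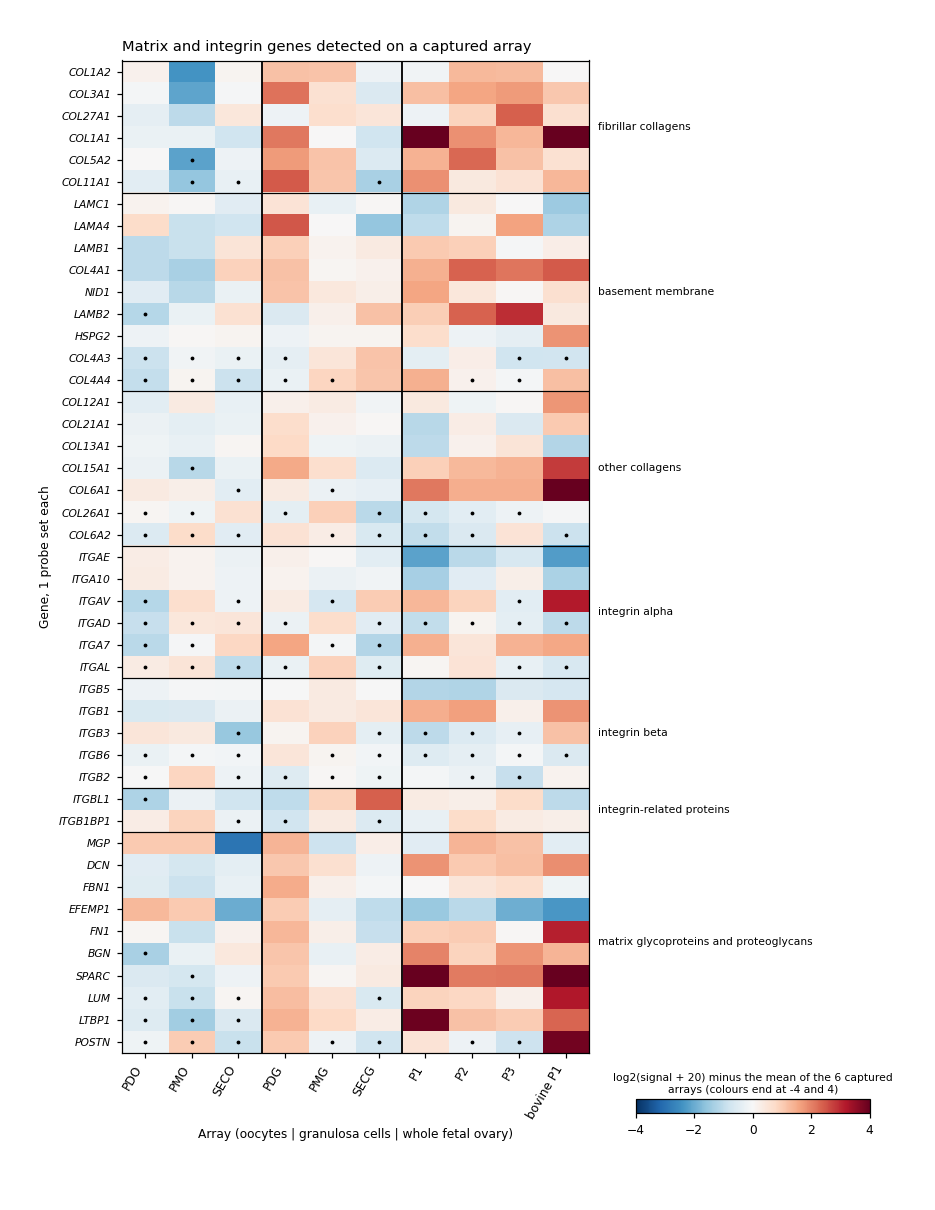
Heat map of the 45 genes detected on a captured array (rows, by role) on the 10 arrays (columns). Colour is log2(signal + 20) minus the mean of that gene over the 6 captured arrays, and a dot marks a signal below detection. Red on PDG runs through the fibrillar collagens except COL27A1, blue on PMO through those except COL1A1, and the P1 columns are brightest for COL1A1, SPARC and LTBP1.

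The first question was how oocytes and GC differed. Matrix genes leaned towards GC. The median oocyte minus GC difference of the 45 genes was -0.55 on the log2(signal + 20) scale, against 0.02 over all probe sets tested. By stage the median was -0.99 in primordial, -0.55 in primary and -0.03 in secondary follicles. It was nearer to 0 without PDO or PDG (-0.33), without the detection filter (-0.27, 63 genes) and with the mean of all probe sets of a gene (-0.14, 47 genes). No gene passed the limma test at an adjusted p of 0.05 (0 of 45, and 0% of all probe sets tested). At an unadjusted p under 0.05, 12 genes (26.7%) were higher in GC, against 5.59% of all probe sets, and 0 were higher in oocytes, against 5.53%. Among the 12, LTBP1, COL4A3 and COL4A4 were detected on no oocyte array. They passed the detection filter through GC arrays alone, which favours this direction.

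In 8 genes (17.8%) all 3 GC arrays lay above all 3 oocyte arrays, against 7.71% of all probe sets. These were NID1, COL21A1, ITGB1, ITGB5, DCN, FBN1, SPARC and LTBP1. The opposite order was met by 0 genes, against 7.28%. At every stage 14 genes (31.1%) were lower in the oocyte, against 17.1%, and 2 (4.44%) were higher, against 17.7%. LTBP1 in the first order, and LTBP1, COL4A3, COL4A4 and ITGB6 among the 14, passed the detection filter through GC arrays alone. The number of genes at least 2-fold lower in oocytes was 22 (48.9%) at the primordial stage, 16 (35.6%) at the primary stage and 6 (13.3%) at the secondary stage, against 9.44%, 11.1% and 8.75% of all probe sets. At least 2-fold higher in oocytes were 1, 4 and 3 genes, against 7.71%, 11% and 10.1%. Without the SECG array, 17 genes (37.8%) had the GC arrays above the oocyte arrays, against 12.7% of all probe sets, and without the secondary stage 21 (46.7%) did, against 22.3%.

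**Figure D2:**
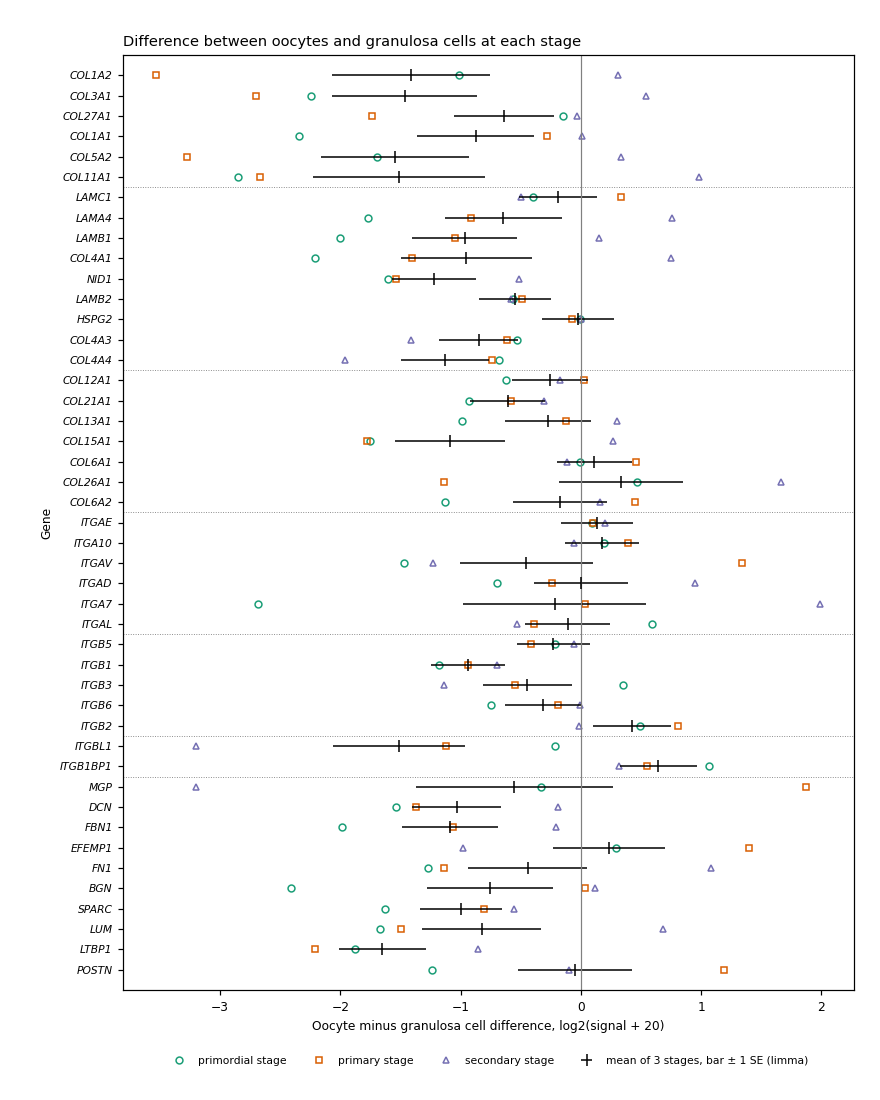
Oocyte minus GC difference in log2(signal + 20) of each of the 45 genes (rows, by role) at the primordial, primary and secondary stage (open symbols), with the mean of the 3 stages and ± 1 SE from limma (black). Most means lie left of 0, and for the fibrillar collagens the secondary stage lies near or above 0, apart from both other stages except in COL27A1, where the primary stage is the one apart, and in COL1A1, where it is the primordial stage.

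Markers of cells outside the follicle were read on the same arrays. The list of stromal markers (COL1A2, COL3A1, LAMA4, TCF21, PDGFRA, PDGFRB and THY1), which shares 3 genes with the matrix group, summed to 14896 on PDO, 3232 on PMO and 14626 on SECO. It summed to 44154 on PDG, 26323 on PMG and 10993 on SECG, and 7 of 7 were detected on at least 1 captured array. These sums were mostly the 3 shared genes. The other 4 markers summed to 265 on PDO, 292 on PMO and 700.4 on SECO, against 363 on PDG, 489 on PMG and 429 on SECG. Most of the SECO sum was TCF21, at 556. PDGFRA and THY1 were detected on the 3 GC arrays and on no oocyte array, and were lower in oocytes at every stage. TCF21 and PDGFRB had no constant direction over the stages. The endothelial markers summed to 715 to 1131 on oocyte arrays and to 2310 on PDG, 736 on PMG and 219 on SECG. Of these, TEK, PECAM1 and CDH5 were detected and KDR, VWF and TIE1 were not. The smooth muscle markers summed to 466 to 595 on oocyte arrays and to 1144 to 2429 on GC arrays. MYH11, the smooth muscle myosin, was lower in oocytes by 1.78 ± 0.33 (SE), and DES and TAGLN were not detected. Leukocyte markers summed to 116 to 211 on oocyte arrays and 122 to 161 on GC arrays, with PTPRC and CD14 undetected. The part of stroma, vessels or muscle in the differences below was not tested.

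Fibrillar collagens had the widest median gap of the larger classes, -1.44 over 6 of 9 genes tested. COL1A2, a chain of type I collagen, had a signal of 8988 on PDO, 1515 on PMO and 8749 on SECO, against 18143 on PDG, 17717 on PMG and 7052 on SECG. The oocyte arrays were below GC in primordial and primary follicles and above in secondary follicles. The mean difference was -1.41 ± 0.66 (SE, limma adjusted p = 0.468).

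COL3A1, the type III collagen of soft connective tissue, followed the same order. It had 4765, 1152 and 4883 in oocytes against 22597, 7585 and 3346 in GC, a difference of -1.47 ± 0.60 (limma adjusted p = 0.438). For both genes PMO was the lowest array and SECG the lowest GC array. The second probe set of each was also lower in oocytes on average.

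COL1A1, the partner chain of COL1A2, had 162, 161 and 105 in oocytes against 907, 199 and 105 in GC. Only PDG stood out. COL27A1, which forms thin fibrils, had 541, 325 and 947 in oocytes against 601, 1128 and 970 in GC, and its groups overlapped. COL5A2, a minor fibril chain picked out after its values were seen, also had PMO as its lowest array and SECG as its lowest GC array. It had 172, 23.4 and 146 in oocytes, the PMO value below detection, and 602, 399 and 111 in GC. COL2A1, COL11A2 and COL5A3 were not detected in captured cells.

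Of the 10 basement membrane genes 9 were tested, with a median difference of -0.85. NID1, nidogen, which links laminin to type IV collagen, had 280, 171 and 323 in oocytes against 895, 534 and 469 in GC. Every GC array lay above every oocyte array, by 1.22 ± 0.35 on the log2 scale (unadjusted p = 0.009, limma adjusted p = 0.406).

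The laminins were uneven. LAMA4, the alpha chain of vessel and muscle basement membranes, had 879, 273 and 293 in oocytes against 3051, 532 and 166 in GC. It was higher in GC in primordial and primary follicles and lower in secondary follicles. LAMB1 had 239, 268 and 746 in oocytes against 1020, 575 and 670 in GC. LAMC1, the gamma chain shared by many laminins, had 2873, 2661 and 1872 in oocytes against 3798, 2110 and 2651 in GC, a difference of -0.19 ± 0.33. LAMB2 was higher in GC at each stage, with 46.2, 100.5 and 202 in oocytes against 77.8, 149 and 312 in GC, but its groups overlapped. LAMB3 was not detected on any of the 10 arrays.

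COL4A1, a chain of the ubiquitous type IV collagen, had 208, 169 and 866 in oocytes against 1031, 480 and 507 in GC. SECO exceeded SECG, the reverse of the other stages. COL4A3, a chain of more restricted basement membranes, was detected on PMG and SECG and on no oocyte array. Its signals were 23.3, 52.8 and 45.6 in oocytes against 42.5, 91.5 and 154 in GC, at least 1.27-fold higher in GC, although the mean of its probe sets was not lower in oocytes (0.022). That bound sets the GC mean against the lowest detected signal of each oocyte array. COL4A4, its neighbour in the sheep genome and a gene singled out after its values were seen, was detected only on SECG among the captured arrays, at 77.1.

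Among the other collagens 7 of 11 were tested, with a median of -0.26. COL21A1 had 220, 194 and 213 in oocytes against 437, 299.8 and 269 in GC, all GC arrays above, a difference of -0.61 ± 0.31 (limma adjusted p = 0.504). COL12A1, a collagen bound to fibril surfaces, had 289 to 513 in oocytes against 358 to 504 in GC. COL13A1, a transmembrane collagen, had 175 to 234 and 187 to 402. Groups overlapped for both. COL6A1 and COL6A2, neighbouring genes for microfibrillar type VI collagen, had low signals in captured cells. COL6A1 reached 98.4 at most, on PDG, where the lowest detected signal was 45.8, and was below detection on SECO and PMG. COL6A2 was detected on PDG only, at 61.9.

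Medians of the integrins lay nearer to 0 than those of the fibrillar collagens and the basement membrane. The median was -0.05 for the 6 alpha chains tested and -0.31 for the 5 beta chains. ITGB1, the beta chain shared by most collagen and laminin receptors, had 555, 562 and 724 in oocytes against 1281, 1095 and 1188 in GC. The GC arrays were close to each other and all lay above the oocyte arrays, a difference of -0.94 ± 0.31 (unadjusted p = 0.017, limma adjusted p = 0.411). ITGB5, which pairs with ITGAV, had 14195 to 15886 in oocytes against 16467, 21199 and 16229 in GC. Its order was the same but its difference small, -0.23 ± 0.30. The other probe set of ITGB5 had an overlapping and far lower signal, and the brightest one stood for the gene.

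ITGAE, the alpha chain of a receptor best known from intraepithelial T cells, was 1 of the 2 genes higher in oocytes at every stage, by 0.13 ± 0.30. It had 1002, 910.4 and 695 in oocytes against 938, 845 and 602 in GC, so its groups overlapped. CD3E of the T cell receptor was detected on 3 captured arrays, at 30.4 to 102 in oocytes against 47.8 to 65.0 in GC. The partner of ITGAE, ITGB7, was not detected on any of the 10 arrays. ITGA10, a collagen-binding alpha chain, had 132 to 199 in oocytes against 128 to 171 in GC.

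ITGAV, the alpha chain of vitronectin and fibronectin receptors, was detected on PMO, PDG and SECG among the captured arrays. ITGB3, another of its partners, was detected on PDO, PMO, PDG and PMG among them. ITGB2, the leukocyte integrin beta chain, was the only gene detected in oocytes (PMO, 84.3) and on no GC array (2.22%), against 9.8% of all probe sets. Detection on GC arrays only was met by 9 genes (20%), against 14.8%.

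The symbol rule also took in 4 genes that are not integrin chains (ITGBL1, ITGB1BP1, ITGB1BP2 and ITGB3BP). ITGBL1, a secreted protein with integrin-like repeats, had 50.2, 120.5 and 74.5 in oocytes against 61.7, 286 and 849 in GC, a difference of -1.51 ± 0.55 (limma adjusted p = 0.414). GC were higher at each stage, and the gap was widest in secondary follicles. ITGB1BP1, which binds the tail of the integrin beta-1 chain inside the cell, was higher in oocytes at each stage. It had 93.8, 151 and 58.1 against 34.3, 97.3 and 42.6, a difference of 0.65 ± 0.32. Among the captured arrays it was detected on PDO, PMO and PMG only, so at the secondary stage both signals were below detection.

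Of the 10 matrix glycoproteins and proteoglycans all were tested, with a median of -0.79. DCN, the collagen-binding proteoglycan decorin, had 1781, 1467 and 1848 in oocytes against 5194, 3821 and 2113 in GC, a difference of -1.03 ± 0.37 (limma adjusted p = 0.414). FBN1, fibrillin-1 of the microfibrils, had 727, 561 and 841 in oocytes against 2941, 1192 and 976 in GC, a difference of -1.09 ± 0.40. SPARC, which binds collagen and calcium, had 60.8, 53.8 and 86.2 in oocytes against 229, 109 and 137 in GC, a difference of -0.996 ± 0.34. In all 3 the GC arrays lay above the oocyte arrays and PDG was the highest.

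LTBP1, which anchors latent TGF-β in the matrix, was detected on the 3 GC arrays and on no oocyte array. It was at least 1.33-fold higher in GC (unadjusted p = 0.002, limma adjusted p = 0.406). LUM, lumican, a proteoglycan next to DCN in the sheep genome, was detected on PDG and PMG and on no oocyte array, at least 1.19-fold higher in GC. MGP, the matrix inhibitor of calcification, had 16559, 16904 and 1050 in oocytes against 20862, 4595 and 9823 in GC. On this probe set MGP was higher in oocytes at the primary stage only. Other MGP probe sets were higher in oocytes at the primordial stage as well, by 1.76 and 1.21, and a further one was lower at every stage. BGN, biglycan, had 37.0, 97.6 and 167 in oocytes against 283, 94.7 and 152 in GC. Groups overlapped for both.

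Genes that act on the matrix were read from 4 lists. Over all probe sets tested, 17.1% were lower and 17.7% higher in oocytes at every stage. For collagen processing and cross-linking 15 of 18 genes were tested, 0 passed in either direction, 5 were lower in oocytes at every stage and 1 was higher, with a median of -0.13. PCOLCE, which speeds the trimming of procollagen, differed by -1.03 ± 0.31. For matrix proteases and their inhibitors 14 of 21 were tested and 0 passed, 5 were lower in oocytes and the median was -0.55. TIMP2, an inhibitor of metalloproteinases, had 1432, 1573 and 1611 in oocytes against 2820, 2378 and 5289 in GC, with all GC arrays above.

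For other matrix proteins 15 of 25 were tested and 0 passed, with 3 lower in oocytes at every stage and a median of -0.23. SPARCL1, related to SPARC, had 1318, 942 and 738 in oocytes against 4385, 2419 and 1822 in GC. For receptors other than integrins and focal adhesion proteins 14 of 18 were tested and 0 passed. At every stage 3 were lower in oocytes and 1 was higher, and the median was 0.07. In these last lists the share lower in oocytes was near the 17.1% of all probe sets. The 3 lower were SDC2 (syndecan-2), DAG1 (dystroglycan) and FERMT2 (kindlin-2, an integrin activator). FERMT2 had 1366, 1112 and 1365 in oocytes against 2781, 2160 and 1961 in GC. At an unadjusted p under 0.05, 8 of the 58 genes tested over the 4 lists (13.8%) were higher in GC, against 5.59% of all probe sets, and 0 in oocytes, against 5.53%. The genes of the lists named here were picked after their values were seen.

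The second question was how the genes changed with follicle growth. No gene passed the limma test of secondary against primordial follicles (0 of 45, and 0% of all probe sets tested) or of primary against primordial follicles (0 of 45, and 0%). At an unadjusted p under 0.05, 5 genes (11.1%) were lower in secondary follicles, against 4.9% of all probe sets, and 3 (6.67%) higher, against 6.49%. For primary against primordial follicles 2 (4.44%) were lower and 2 (4.44%) higher, against 3.02% and 3.52%.

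Stage differences were also taken within each compartment, and the contrast between compartments was not tested. The median secondary minus primordial difference of the 45 genes was -0.68 on GC arrays and 0.10 on oocyte arrays, against 0.0019 and 0.10 over all probe sets. With both compartments in the fit it was -0.40, and it was -0.065 without PDG and 0.053 without SECG. On GC arrays alone, 9 of 40 genes (22.5%) were at least 4-fold lower on SECG than on PDG, against 1.37% of all probe sets. These were LAMA4, COL11A1, COL1A1, ITGA7, COL3A1, FN1, COL5A2, COL15A1 and EFEMP1, and some of them, outside the naming rule, are given because they met this fold. Only ITGBL1 (2.5%) was at least 4-fold higher on SECG, against 1.4%. COL11A1 and ITGA7 were undetected on SECG, so their folds are bounds of at least 8.19 and 2.44. The fold of COL11A1 rested on the probe set that stood for the gene. Its other probe sets tested were detected on PDG and SECG and differed by only -0.0060 and -0.34. On oocyte arrays 2 of 34 genes (5.88%), MGP and EFEMP1, were at least 4-fold lower on SECO than on PDO, against 1.34%, and 0 were higher, against 1.93%. Each of these contrasts was 1 array against 1 array, with no test. The endothelial list was also lower on SECG (219) than on PDG (2310).

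LAMA4 had the largest stage difference of the 45 genes, -2.79 ± 0.60 for secondary minus primordial (unadjusted p = 0.002, limma adjusted p = 0.238), and was lower in both compartments. EFEMP1, fibulin-3 of elastic and basement membrane matrix, had 1038, 869 and 87.4 in oocytes against 844, 316 and 192 in GC. Both compartments were lower in secondary follicles, a difference of -2.66 ± 0.57 (limma adjusted p = 0.238). With a constant of 50 added to the signals LAMA4 passed at a limma adjusted p = 0.0447 and EFEMP1 at 0.0454. With a variance trend in limma they passed at 0.0406 and 0.0431. Of all 11642 probe sets tested, 37 passed with the constant of 50 and 67 with the variance trend, against 0 in the main fit. Without PMO or without PMG, the remaining primary array was fitted exactly by its stage term. Both fits thus equal the fit without the primary stage, where the EFEMP1 difference was again -2.66. MGP and COL1A1 had the next largest differences among the named genes lower in both, -2.52 ± 1.00 and -1.72 ± 0.60.

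In the other direction LAMB2, the beta-2 laminin chain, was higher with each stage in both compartments, from 46.2 to 202 in oocytes and from 77.8 to 312 in GC, a difference of 1.75 ± 0.37 (limma adjusted p = 0.238). On PDO it was below detection. ITGBL1 differed by 1.92 ± 0.67 (limma adjusted p = 0.361), the mean of 3.41 on the GC arrays and 0.43 on the oocyte arrays. COL4A3 was at least 2.65-fold higher on SECG than on PDG. Of the 4 GC markers detected, FST, INHA and GATA4 were also higher on SECG (776, 617 and 263) than on PDG (107, 36.7 and 125, that of INHA below detection), and INHBA was lower (253 against 469.6).

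In the primary oocyte array several fibrillar collagens were low. COL1A2, COL3A1 and COL5A2 were at least 4-fold lower on PMO than on PDO (3 of 34 genes, 8.82%, against 0.621% of all probe sets), and 0 were higher (against 0.843%). COL5A2 was below detection on PMO, which bounds its fold at 2.04 or more. In GC, LAMA4, COL1A1 and MGP were at least 4-fold lower on PMG than on PDG (3 of 43, 6.98%, against 0.979%), and 0 were higher (against 0.705%). For MGP this held on the probe set that stood for the gene only. Its other probe sets differed by 0.51, -0.047 and 0.088.

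**Figure D3:**
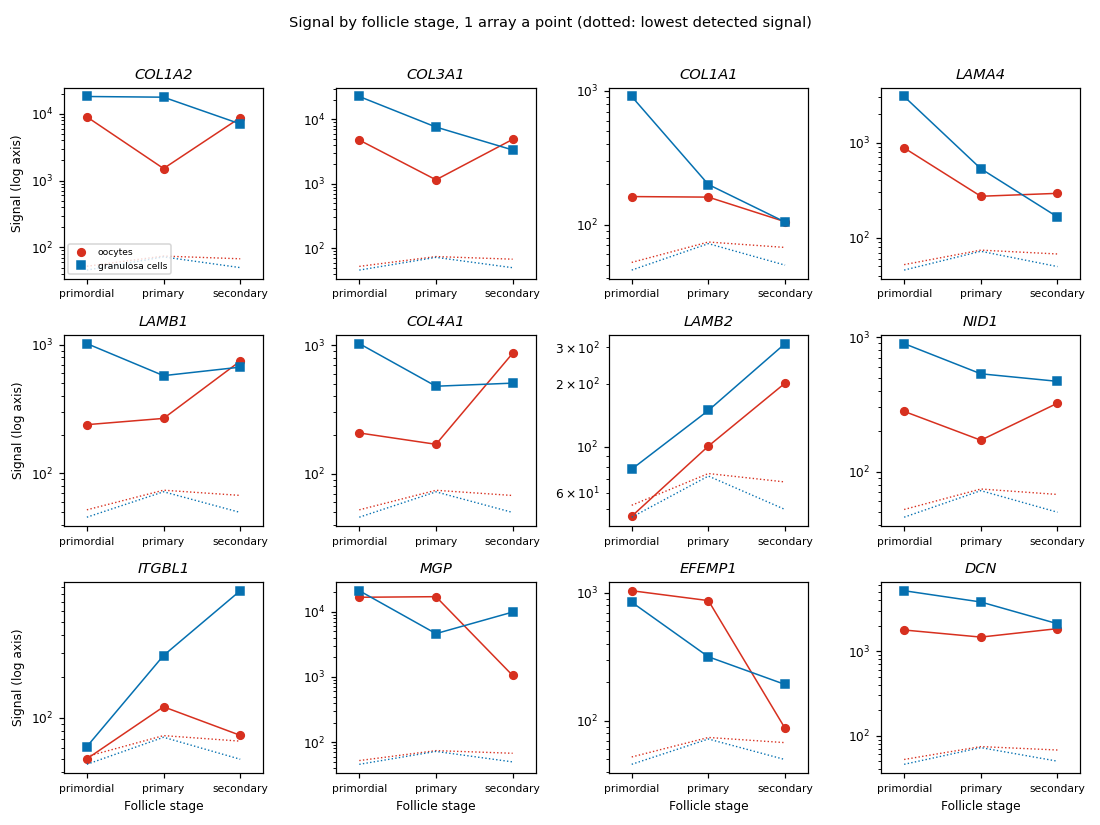
Signal (log axis) of 12 genes at the primordial, primary and secondary stage on oocyte arrays (red circles) and GC arrays (blue squares), 1 array a point, with the lowest detected signal of each array dotted. LAMA4 and COL1A1 are lower on each later GC array, LAMB2 is higher at each later stage in both, and the lines of COL1A2, COL3A1 and COL4A1 cross before the secondary stage.

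The third question was how captured follicle cells compared with a whole ovary labelled the same way. The median difference of the P3 fetal ovary from the mean of the 6 captured arrays was 0.25, against -0.05 over all probe sets. At least 4-fold higher in the fetal ovary were 4 of 45 genes (8.89%), against 1.57% of all probe sets, and 0 were 4-fold lower, against 0.148%. LAMB2 had 1114 in the fetal ovary and 46.2 to 312 in captured cells. COL27A1 had 3711 against 325 to 1128, COL4A1 had 2030 against 169 to 1031, and SPARC had 501 against 53.8 to 229. In these 4 genes the fetal ovary lay above every captured array. BGN, at 463 against 37.0 to 283, did so as well.

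On the probe sets that stood for them, COL1A2 and COL3A1 did not meet the 4-fold difference. Their P3 fetal signals were 19337 and 16177, and the captured PDG array reached 18143 and 22597. The second probe set of COL3A1 did meet it, with a log2 difference of 2.43. That of COL1A2 was just short of it, at 1.999. EFEMP1 was the dimmest relative to captured cells, by -1.96, with 90.2 in the fetal ovary and 87.4 to 1038 in captured cells. ITGAE had 524 against 602 to 1002, below every captured array. In all, 8 genes (17.8%) lay above all 6 captured arrays and 5 (11.1%) below, against 18.1% and 19.5% of all probe sets. The 2 sides differed in age and in cell makeup, which cannot be told apart, and there was 1 fetal array.

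**Figure D4:**
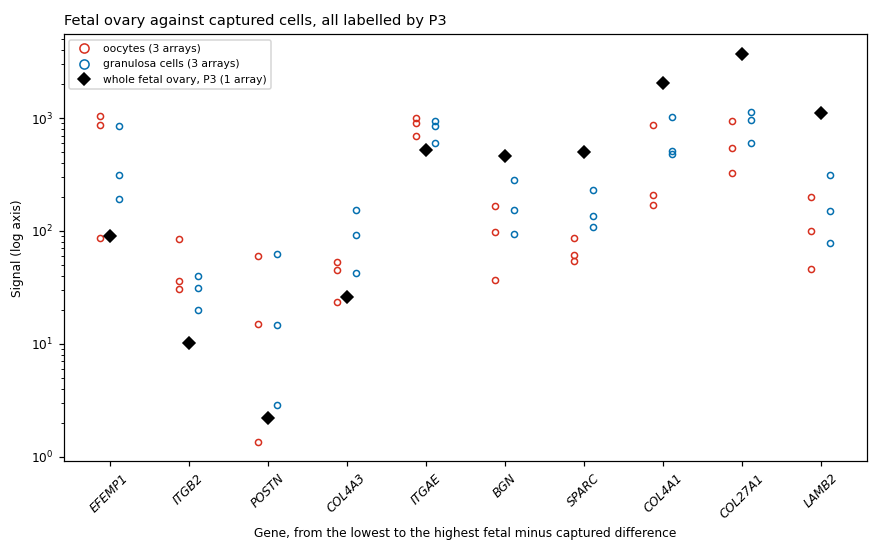
Signal (log axis) of the 5 genes with the lowest and the 5 with the highest difference between the P3 fetal ovary (black diamonds, 1 array) and the captured arrays (red for oocytes, blue for GC, 3 arrays each). From BGN to LAMB2 the fetal ovary lies above all captured arrays.

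The fetal arrays also show how far the reading of a gene depended on labelling. With the same ovine tissue, 2 of 44 genes (4.55%) were at least 4-fold higher after P3 than after P1, against 2.56% of all probe sets, and 3 (6.82%) were lower, against 7.1%. LAMA4 had 251, 561 and 1648 after P1, P2 and P3, and COL27A1 had 595, 1301 and 3711. COL1A1 went the other way, with 7133, 755 and 528, as did SPARC with 4997, 493 and 501 and LTBP1 with 943, 122 and 109. COL1A1 and COL1A2, whose proteins join in 1 molecule, thus had P3 minus P1 differences of opposite sign, -3.71 and 1.39. P2 was at least 4-fold lower than P1 in 3 of 43 genes (6.98%, against 6.68%) and higher in 0 (against 1.02%). Captured cells were labelled by P3 alone, so the low captured signals of COL1A1, SPARC and LTBP1 were read with the labelling under which fetal ovary was also dim for them.

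Ovine RNA on the bovine array was at least 4-fold dimmer than bovine RNA in 6 of 48 genes (12.5%), against 5.34% of all probe sets, and brighter in 0, against 1.21%. POSTN, periostin, had 38.4 with ovine and 552 with bovine RNA. COL6A1 had 378 and 2752, LUM had 118 and 672, FN1 had 455 and 2099 and COL21A1 had 111 and 557. These counts and values hold for 1 probe set a gene. Another COL6A1 probe set went the other way, with 398.6 and 182.8. A COL6A2 probe set that did not stand for its gene had 519 with ovine and 47.1 with bovine RNA. Bovine RNA gave ITGB3 a signal at least 3.22-fold above the ovine one, which was below detection. FN1, fibronectin, was added to the named genes for meeting this fold. COL1A2, at 7372 and 8057, and COL3A1 stayed close. Species and age differed together between these arrays and cannot be told apart.

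**Figure D5:**
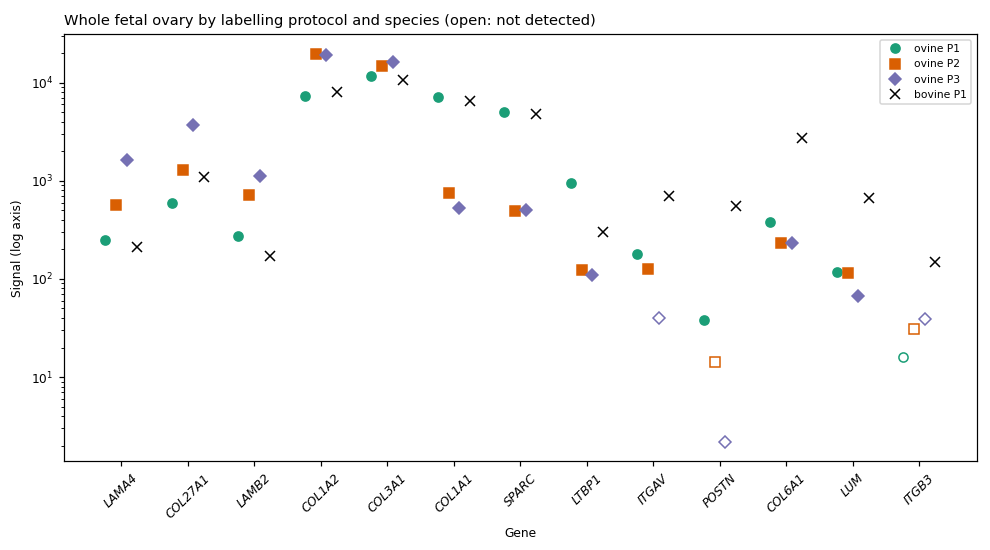
Signal (log axis) of 13 genes in whole ovine fetal ovary after labelling by P1 (circles), P2 (squares) and P3 (diamonds) and in bovine fetal ovary after P1 (crosses), 1 array each, with open symbols below detection. LAMA4 and COL27A1 are brightest after P3, COL1A1, SPARC and LTBP1 after P1, and POSTN, COL6A1, LUM and ITGB3 with bovine RNA.

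Choice of probe set mattered for some genes. Of the 63 genes 34 had several probe sets and 29 had 1. In 13 genes at least 2 probe sets were tested. In 8 of these all gave an oocyte minus GC difference of the same sign, COL1A2, COL3A1, LAMA4 and LAMC1 among them. In 5 the signs differed (COL11A1, COL12A1, COL6A2, ITGB3 and MGP). MGP had 4 probe sets tested, 2 of each sign.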

How the data were processed

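Values were MAS 5.0 signal intensities that the authors made with GCOS from Affymetrix GeneChip Bovine arrays, scaled so that the trimmed mean of each array was 100. The deposited intensities are linear, and the GCOS version is not given in the sources used here. For this report the 112 control probe sets were left out, 20 was added and log2 was taken. Detection on an array meant ranking within the share of present calls that the study lists for it. limma 3.58.1 in R 4.3.3 was fitted to the 11642 probe sets with detection on 1 or more captured arrays, with terms for stage and compartment (2 residual degrees of freedom). Its p values were adjusted by Benjamini and Hochberg over all of them at 0.05. The fit was tested on simulated data. Single arrays were compared without a test, at 4-fold. Array number limits the precision.

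Gene symbols came from the platform annotation, in which 13292 probe sets had 1 symbol, 86 several and 10638 none. Of the 63 symbols 62 are listed in the sheep RefSeq annotation, which gave the neighbouring genes. Named genes were the 3 of highest mean captured signal per role, COL3A1, COL1A2 and LAMA4, and those of the largest difference in each comparison (4 to 6 in each direction, for compartments and stages of the same sign and detected on 2 or more captured arrays). Genes, lists and tests were chosen with earlier results of these data known. Alternatives were other added constants, quantile normalization, other detection filters, no stage term, a variance trend, left-out stages or arrays, other fold minimums and the mean of all probe sets. Figures were drawn with matplotlib 3.10.9.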

Additional observations from a re-analysis of the deposited data

Results flagged for a closer look

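In 4 genes the difference between secondary and primordial follicles ran in opposite directions in the compartments, by at least 1.5-fold each way. The rule was run on the matrix genes only, so the share over all probe sets is not known and nothing is read from the count. The contrast of the compartments rests on 1 array per stage and compartment and was not tested. ITGA7, the alpha chain of a laminin receptor of muscle, was higher by 1.91 (log2) on SECO than on PDO and lower by a difference of -2.77 on SECG than on PDG, 4.68 apart. Only SECO (79.5) and PDG (150.4) were above detection, which bounds the changes at 1.38-fold or more in oocytes and 2.44-fold or more in GC. COL4A1 differed by 1.96 in oocytes and -0.995 in GC, 2.96 apart, with all 4 arrays detected. BGN differed by 1.71 and -0.82, 2.53 apart, and LAMB1 by 1.56 and -0.59, 2.15 apart. BGN was below detection on PDO, so its oocyte value is a bound of at least 2.58-fold. SECO is also the array with a high HBB signal, and its part in these values was not tested.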

How the results depend on the processing

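No gene passed the oocyte minus GC test under any of the alternatives run. The number with all GC arrays above all oocyte arrays was 8 to 21 of 45 when a stage or an array was left out (21 without the secondary stage, 17 without SECG), where 10.9% to 22.3% of all probe sets had this order, and 7 to 10 under the other alternatives (5.6% to 8.86% of all). The number with all oocyte arrays above was 0 to 2 on leaving out a stage or array (11.5% to 21.4% of all) and 1 of 47 with the mean of all probe sets of a gene (7.3% of all). Left-out stages turned the oocyte minus GC difference of 7 genes: COL13A1 (-0.56 to 0.089), ITGAV (-1.35 to 0.054), MGP (-1.77 to 0.77), EFEMP1 (-0.35 to 0.85), BGN (-1.19 to 0.077), POSTN (-0.67 to 0.55) and COL6A1 (-0.061 to 0.23). The mean of all probe sets turned COL12A1 (0.067), ITGB3 (0.23) and COL4A3 (0.022). The other 379 of 389 values of single genes kept their sign.

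The number passing the secondary minus primordial test was 2 with a constant of 50 and with a variance trend. Under these settings 37 and 67 of 11642 probe sets passed. No count is given for leaving out an array, since a stage left with 1 array is fitted exactly. The median secondary minus primordial difference was -0.61 to 0.053 on leaving out an array (0.053 without SECG) and 0.10 on oocyte arrays alone. Single arrays of 1 compartment gave no test, so no count of genes passing was had from them. The arrays were left out 1 at a time after the data had been seen.

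With a fold minimum of 2 in place of 4, 16 of 45 genes (35.6%, against 10.9% of all probe sets) were higher and 1 (2.22%, against 6.4%) lower in the P3 fetal ovary than in captured cells. After P3 10 of 44 (22.7%, against 14.2%) were higher than after P1 and 12 (27.3%, against 25.7%) lower. With ovine RNA 3 of 48 (6.25%, against 12.3%) were brighter than with bovine RNA and 13 (27.1%, against 20.5%) dimmer. With a constant of 1, 2 were lower in the fetal ovary (4.44%, against 2.82%), 4 were higher (9.09%, against 4.89%) and 7 lower (15.9%, against 15.8%) after P3 than P1, and 1 was brighter with ovine RNA (2.08%, against 3.52%). The mean of all probe sets gave 0 of 47 genes higher after P3 (against 1.67% of all genes with a symbol) and 3 of 51 dimmer with ovine RNA (5.88%, against 3.59%). The causes were not tested. The stage term stands for the pairing of arrays. No paired analysis was possible by replicate number because the labels give none. Signals near detection, as for ITGAV, COL4A4 or POSTN, have little room to differ.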
